A study of Mus musculus with 2 samples.

Results

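miR-21 is a microRNA whose single mouse locus with reads here, Mir21a, gives a guide strand, miR-21-5p, and a rare passenger strand, miR-21-3p. Its reads were taken as all sequences that the deposited annotation classes as miRNA and names mmu-mir-21 or mmu-mir-21-star, which gave 79 of the 12128 distinct sequences of that class. Placed on the hairpin, 56 of them lay on the 5p side and 23 on the 3p side, and of the 60 named mmu-mir-21, 4 fell on the 3p side. The reads came from 2 small RNA libraries of E18.5 fetal mouse liver of strain B6/129, 1 from Ago2ADH fetuses and 1 from wild type fetuses. Ago2ADH is an allele whose Ago2 protein is catalytically inactive, that is, it cannot cleave RNA. Total RNA was run on a gel, a fraction of 19 to 30 nt was cut out, and adapters were ligated before amplification and sequencing on an Illumina GA2. The labels do not say how many livers went into each library, and with 1 library per genotype no difference below has a replicate check. Intervals cover counting error only, and amplified reads without molecular identifiers are not independent molecules.

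A microRNA hairpin is cut by Drosha and Dicer into a short duplex, of which an Argonaute protein keeps one strand as the guide. Bases 2 to 8 of the guide, the seed, pair with sites in target mRNAs, most of which are repressed without cleavage. miR-21 is a widely expressed microRNA known for its rise in tumours, fibrosis and regenerating liver, and its known targets include the tumour suppressor Pdcd4. One microRNA of the red cell lineage, miR-451, is matured by Ago2 cleavage in place of Dicer; miR-21 is not known to be.

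The mature strands are shown because every read form below is placed against their ends; the seed is in capitals, and the sequences are from RefSeq on GRCm38.p6.
miR-21-5p: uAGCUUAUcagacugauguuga
miR-21-3p: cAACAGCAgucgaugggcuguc
miR-21c: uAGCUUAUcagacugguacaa
The hairpin of 92 nt lies on the minus strand at chr11:86584067-86584158, with the 5p strand at chr11:86584120-86584141 and the 3p strand at chr11:86584082-86584103. This stretch is inside exon 12 of Vmp1-201, in the 3′ untranslated region of Vmp1, a gene for a membrane protein of autophagy, which lies at chr11:86583865-86683836 on the same strand. In the predicted fold, 19 of the 22 bases of the 5p strand and 21 of the 22 bases of the 3p strand were paired. The first 5p base paired with base 20 of the 3p strand, so that the last 2 bases of the 3p strand would overhang in the cut duplex. In the fold of the whole hairpin, those 2 bases were paired with bases outside the 5p strand. Among RefSeq mature mouse microRNAs, miR-21c alone shares the 5p seed, and none shares the 3p seed. The miR-21c hairpin had no read of its own and shared 1 sequence of 15 nt with miR-21 (41 reads in Ago2ADH and 18 in wild type). The Mir21b hairpin had no read, and no read matched the opposite strand of the miR-21 hairpin. Of the 79 sequences, 66 matched the genome once, and these held 99.89% of the miR-21 reads in Ago2ADH and 99.90% in wild type.

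The miRNA class held 2811227 reads in Ago2ADH and 2808232 in wild type, 39.9% and 37.0% of 7046197 and 7599870 reads in all. Alb and Afp, the fetal hepatocyte's albumin and alpha-fetoprotein, had 36365 and 9649 mRNA fragments in Ago2ADH and 40362 and 8509 in wild type. miR-451-5p, the slicing-dependent microRNA, stood at 1554 RPM (reads per 1000000 miRNA reads) in Ago2ADH, against 116371 in wild type.

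Both strands of miR-21 were more abundant in the Ago2ADH library, and the rare 3p strand more so than the 5p strand. miR-21 was chosen by its read counts in these 2 libraries, by arm, read end and length, so that the values of its arms and forms are a description, with no test. miR-21-5p had 75657 reads in Ago2ADH and 43320 in wild type. That was 26912 RPM in Ago2ADH and 15426 RPM in wild type, or 2.69% of miRNA reads (95% exact interval 2.67 to 2.71) and 1.54% (1.53 to 1.56). This level was 1.74-fold higher in Ago2ADH, with 0.80 as its log2 ratio (exact conditional binomial 95% interval 0.79 to 0.82). It was the fourth most abundant arm in Ago2ADH and the fifth in wild type.

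miR-21-3p had 334 reads in Ago2ADH and 94 in wild type, which is 119 (106 to 132) and 33.5 (27.1 to 41.0) RPM. This level was 3.55-fold higher in Ago2ADH, with 1.83 as its log2 ratio (1.49 to 2.17). It ranked 222 by level in Ago2ADH and 300 in wild type among the arms. An arm was called by size where it had at least 100 reads over both libraries, differed at least 2-fold and had an interval that did not include a ratio of 1. By that rule 20 of 352 arms, 5.68%, were higher in Ago2ADH and 3, 0.852%, were lower; miR-21-3p was among the higher ones and miR-21-5p was not called. The split depended on the scaling, with 13 higher and 5 lower under median-of-ratios scaling, 13 and 4 under TMM, and 10 and 6 without the 10 most abundant arms in the totals. The ratio of miR-21-3p was the sixth highest of the 352 and that of miR-21-5p was number 29. The median arm had a log2 ratio of 0.15, and 228 arms lay above 0. Set against the middle of all arms, as median-of-ratios scaling does, miR-21-5p was higher by a log2 ratio of 0.65 and miR-21-3p by 1.68.

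**Figure D1:**
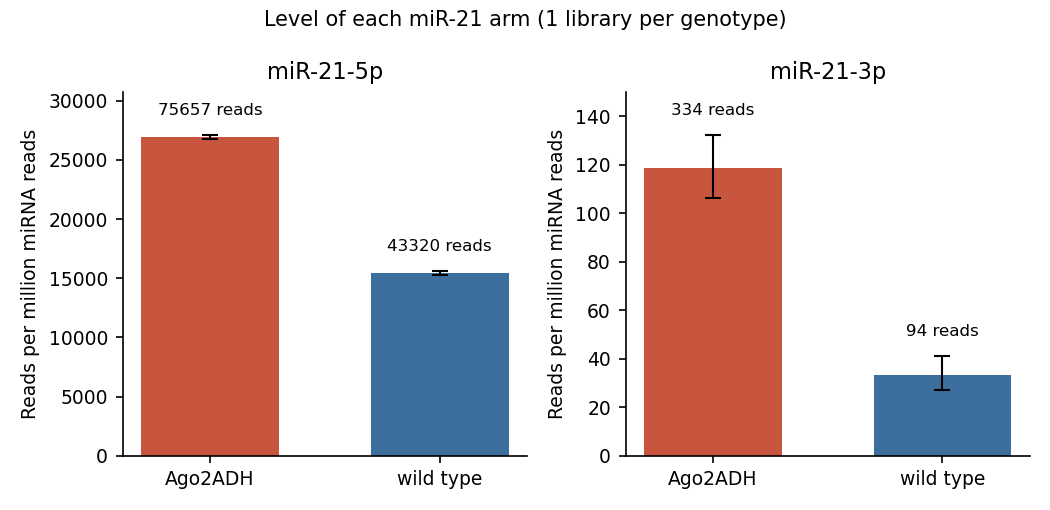
Level of miR-21-5p and miR-21-3p in RPM in the Ago2ADH and the wild type library, with exact 95% counting intervals as error bars and read counts above the bars. Both arms are higher in Ago2ADH, 26912 against 15426 for the 5p arm and 119 against 33.5 for the 3p arm.

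These libraries come from whole tissue, where fewer cells of a type and less RNA per cell cannot be told apart. Of 13 erythroid marker genes, 1 had more and 7 had fewer mRNA fragments in Ago2ADH beyond the counting interval, against 6.21% of all genes with more and 5.95% with fewer; the erythroid median log2 ratio was -0.49, with 8698 reads in Ago2ADH against 14394 in wild type. Of 13 hepatocyte markers, 3 had more and 7 fewer (5 and 3 when scaled to RefSeq-class reads), with a median of -0.07 and 97323 reads in Ago2ADH against 101380 in wild type. Of 7 stellate and stromal genes 2 had fewer, both of which encode fibrillar collagens. These were Col1a2 (19 reads in Ago2ADH and 42 in wild type, at -1.04) and Col3a1 (18 and 37, at -0.93). Of 8 myeloid genes counted, 1 had fewer, the macrophage marker Emr1 (38 and 64). In sense exon reads alone Emr1 had 28 in Ago2ADH and 38 in wild type, at -0.33 (-1.09 to 0.41). Scaled to RefSeq-class reads, no myeloid gene had fewer. The listed myeloid gene Cd68 went the other way, with 15 reads in Ago2ADH and 1 in wild type, at 4.02 (1.32 to 9.41). It had too few reads to be counted. The median was -0.14 over the stellate and stromal genes, -0.05 over 6 endothelial, -0.01 over the myeloid and 0.35 over 3 megakaryocyte genes. No listed marker was at 0 in either library. The part of these marker differences in the miR-21 levels was not tested.

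Neighbours of miR-21-5p in the abundance order of wild type had smaller differences, apart from miR-451-5p. The arms next above it were miR-22-3p (88044 reads in Ago2ADH and 86446 in wild type), miR-16-5p (91422 and 101125) and miR-451-5p (4368 and 326796). Next below came miR-194-5p (44328 and 41798), miR-541-5p (42126 and 35512) and miR-103-3p (32669 and 33773). The highest log2 ratio of these 6 arms was the 0.24 of miR-541-5p, and the ratio of miR-451-5p was -6.23. In wild type miR-21-5p and miR-194-5p were close, at 15426 and 14884 RPM, while in Ago2ADH they stood at 26912 and 15768.

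Next to miR-21-3p in that order were miR-150-5p (84 reads in Ago2ADH and 95 in wild type) and miR-467a-5p (141 and 98) above, and miR-450b-5p (115 and 94) and miR-495-5p (79 and 93) below. At these counts the 5 arms could not be told apart in wild type, and in Ago2ADH miR-21-3p, with 334 reads, stood above the other 4. The arms nearest to miR-21-5p in log2 ratio, over the 2 libraries, were miR-500-5p at 0.80, miR-542-3p at 0.80, miR-669d-5p at 0.79, miR-543-3p at 0.82 and miR-19a-3p at 0.77. All 5 had fewer reads, with at most 2044 in Ago2ADH and 1197 in wild type, for miR-19a-3p. Nearest to miR-21-3p were miR-136-5p at 1.70, miR-29b-3p at 1.51, miR-33-5p at 2.16, miR-141-3p at 2.21 and miR-297a-5p, with 144 reads in Ago2ADH and 51 in wild type.

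Because its log2 ratio was the larger one, the 3p strand made up a greater share of miR-21 in Ago2ADH, although it stayed rare. The 3p share was 0.440% in Ago2ADH (Clopper-Pearson 95% interval 0.394 to 0.489) and 0.217% in wild type (0.175 to 0.265). There were 227 reads of the 5p strand for each 3p read in Ago2ADH and 461 in wild type. The log2 odds ratio of the 3p share was 1.02 (Woolf 95% interval 0.69 to 1.35). The same odds ratio was taken for the minor arm of each of 204 hairpin names with at least 200 reads and a read on each arm. Its interval lay above 0 for 38 of them, 18.6%, and below 0 for 42, and the median was -0.17. miR-21 had the twenty-first highest value, and among the 100 hairpins with at least 100 minor-arm reads, 8 lay above it.

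**Figure D2:**
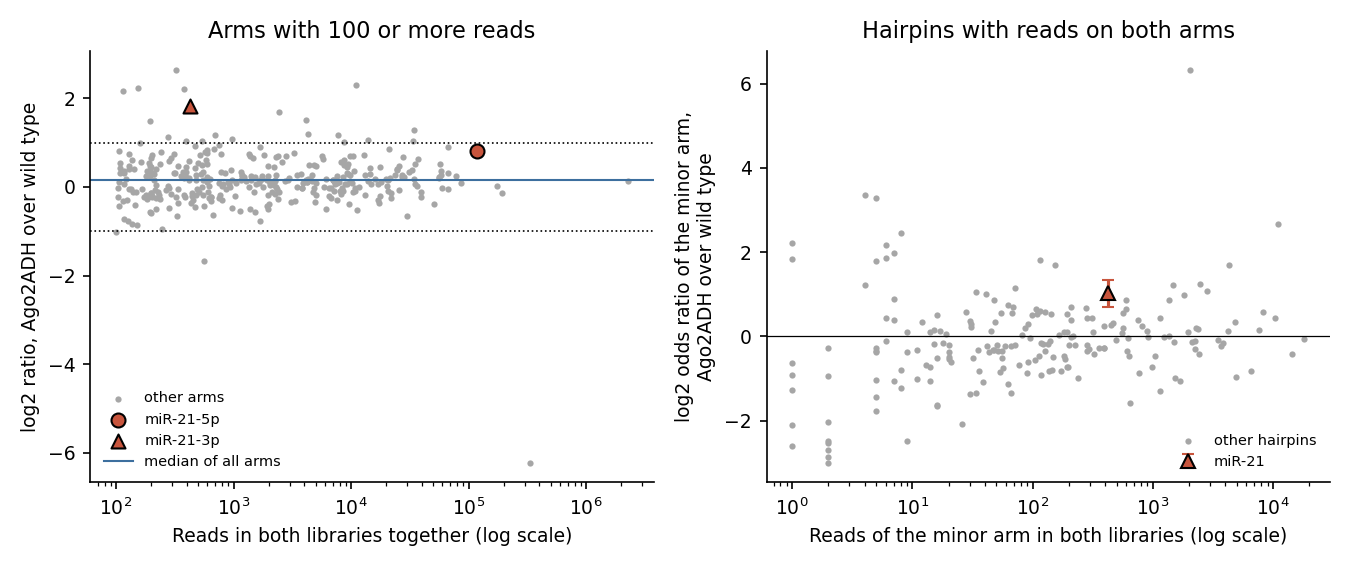
Left, log2 ratio of each of the 352 miRNA arms with at least 100 reads against its reads in both libraries (log scale), with the 2 miR-21 arms marked, the median of all arms as a line and the 2-fold limits dotted. Right, log2 odds ratio of the minor arm for each of the 204 hairpin names against its minor-arm reads (log scale), with the miR-21 value and its 95% interval. miR-21-5p lies under the upper 2-fold limit at 0.80 and miR-21-3p above it at 1.83, and the miR-21 minor arm lies at 1.02.

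Most 5p reads began at the mature start and ended at the mature end or 1 base past it. The 5 forms with at least 1% of the arm are shown, in order of length, since the difference between the libraries lay in where they stopped; the seed is in capitals and T stands for U.
miR-21-5p, 20 nt: tAGCTTATcagactgatgtt
miR-21-5p, 21 nt: tAGCTTATcagactgatgttg
miR-21-5p, 22 nt: tAGCTTATcagactgatgttga
miR-21-5p, 23 nt: tAGCTTATcagactgatgttgac
miR-21-5p, 24 nt: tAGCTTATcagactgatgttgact
The 23-nt form was the most abundant in both libraries, with 37483 reads in Ago2ADH and 23250 in wild type, 49.5% and 53.7% of the arm. The 22-nt form, the annotated strand, had 29774 and 15539 reads, 39.4% and 35.9%. The 21-nt form had 4615 and 2141 reads, 6.10% and 4.94%. The shares of the 23-nt form were thus lower in Ago2ADH, and those of the 22-nt and 21-nt forms higher, each beyond its counting interval.

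Among these 5 forms the log2 ratio was highest for the 21-nt form, at 1.11 (1.03 to 1.18), and lower for each longer form up to 23 nt. It was 0.94 (0.91 to 0.96) for the 22-nt form and 0.69 (0.66 to 0.71) for the 23-nt form. The 20-nt form had 962 reads in Ago2ADH and 522 in wild type, at 0.88 (0.73 to 1.04), and the 24-nt form 1627 and 945, at 0.78 (0.67 to 0.90). All 5 forms were therefore more abundant in Ago2ADH, and the share of the 20-nt and 24-nt forms in the arm did not differ beyond counting error. The shorter forms from the same start, 15 to 19 nt, varied among themselves. Together they had 359 reads in Ago2ADH and 318 in wild type, which gave a log2 ratio of 0.17 (-0.05 to 0.40), below that of the arm. Among them the 15-nt form had 41 reads in Ago2ADH and 18 in wild type, at 1.19 (0.35 to 2.07). The 19-nt form had 197 and 152, at 0.37 (0.06 to 0.69), and the 18-nt form had 35 and 59, at -0.75 (-1.40 to -0.13).

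Reads that ran at least 1 base past the mature 5p end made up 52.1% of the arm in Ago2ADH (51.7 to 52.4) and 56.4% in wild type (55.9 to 56.9), a log2 odds ratio of -0.25 (-0.28 to -0.22). The mean read length was 22.41 nt in Ago2ADH and 22.45 nt in wild type, with standard deviations over reads of 0.856 and 0.889 nt. Of 285 arms with at least 100 reads in each library, 195 had longer mean reads in Ago2ADH, with a median difference of 0.03 nt. miR-21-5p, at -0.04 nt, had the 38th lowest difference. The share of reads that ended before the end of the most read form was 47.9% in Ago2ADH and 43.6% in wild type for miR-21-5p, 4.30 percentage points higher, against a median over the arms of -0.40 points. In 23 of the 285 arms that difference was greater.

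**Figure D3:**
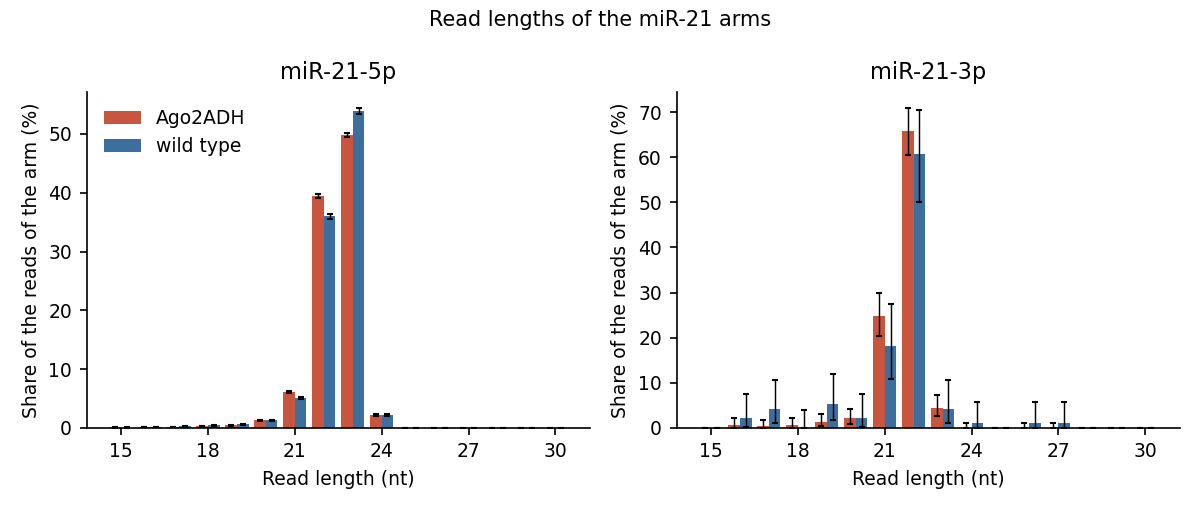
Read lengths of miR-21-5p and miR-21-3p as a share of the reads of the arm, for Ago2ADH (left bar of each pair) and wild type (right bar), with Clopper-Pearson 95% intervals. The 22-nt bar of the 5p arm is taller in Ago2ADH and the 23-nt bar taller in wild type, while the intervals of the 3p arm overlap at its main lengths of 21 and 22 nt.

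The 5′ end of miR-21-5p, which sets the seed, was at the mature start in 98.9% of reads in Ago2ADH and 98.6% in wild type, a log2 odds ratio of 0.33 (0.18 to 0.48). Reads that started 1 base earlier numbered 266 in Ago2ADH and 193 in wild type, and those that started 4 or more bases later 403 and 290. Both classes had lower log2 ratios than the arm, at 0.46 (0.19 to 0.74) and 0.47 (0.25 to 0.70). The median arm also gained at its main start, by 0.29 percentage points, and miR-21-5p gained 0.28 points, rank 142 from the lowest of 285.

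**Figure D4:**
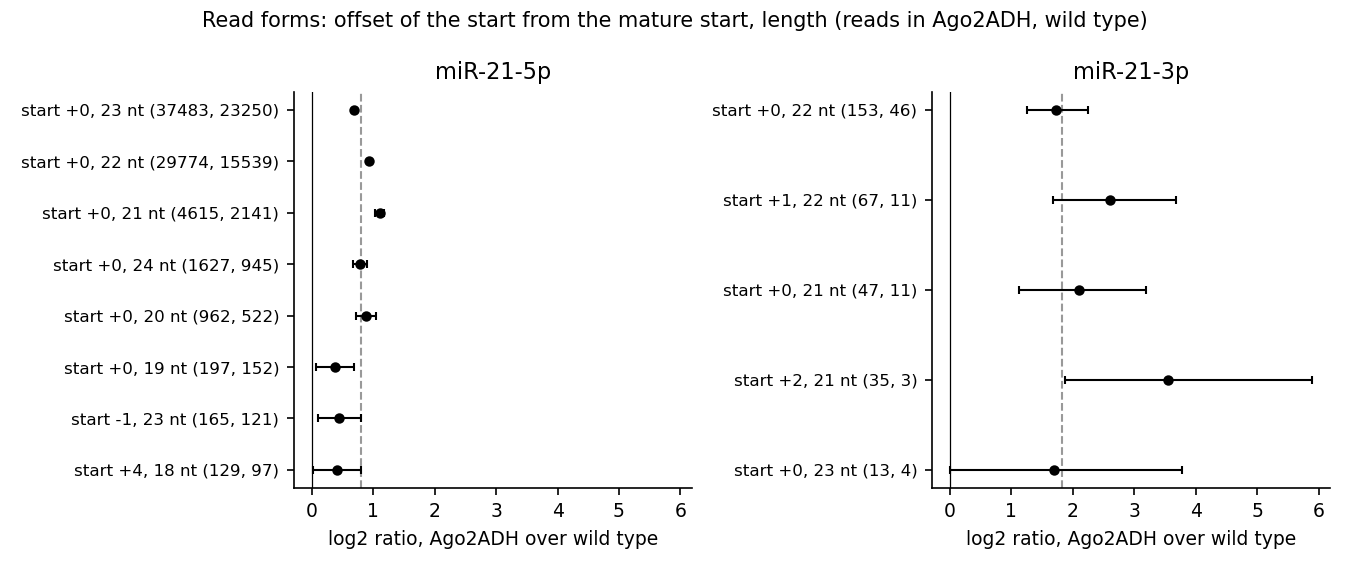
log2 ratio of the 8 most read forms of miR-21-5p (left) and the 5 most read forms of miR-21-3p (right), with exact 95% counting intervals. Each form is named by the offset of its start from the mature start and its length, with its reads in Ago2ADH and then wild type, and the dashed line is the log2 ratio of the whole arm. The 21-nt and 22-nt forms of the 5p arm lie right of that line and the 23-nt form left of it.

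The 3p strand was less uniform, with starts at the mature start and 1 or 2 bases later. The 6 forms with most reads are shown, since they differ at both ends; the seed is in capitals.
miR-21-3p, positions 56 to 77: cAACAGCAgtcgatgggctgtc
miR-21-3p, positions 57 to 78: aACAGCAGtcgatgggctgtct
miR-21-3p, positions 56 to 76: cAACAGCAgtcgatgggctgt
miR-21-3p, positions 58 to 78: aCAGCAGTcgatgggctgtct
miR-21-3p, positions 56 to 78: cAACAGCAgtcgatgggctgtct
miR-21-3p, positions 58 to 77: aCAGCAGTcgatgggctgtc
The annotated strand, from 56 to 77 on the hairpin, had 153 reads in Ago2ADH and 46 in wild type, which gave a log2 ratio of 1.73 (1.25 to 2.24). The form 1 base later at both ends had 67 in Ago2ADH and 11 in wild type, at 2.61 (1.67 to 3.67). The 21-nt form that stopped 1 base short had 47 and 11, at 2.09 (1.13 to 3.19), and that from position 58 to 78 had 35 and 3, at 3.54 (1.88 to 5.89). The remaining forms shown had 13 and 4 reads, and 4 and 2. All 6 had more reads in Ago2ADH than in wild type, and the intervals of the first 4 overlapped.

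By start, 213 reads of miR-21-3p in Ago2ADH and 65 in wild type began at the mature start, 63.8% and 69.1% of the arm. Starts 1 base later had 73 and 15 reads, which gave a log2 ratio of 2.28 (1.47 to 3.19), and starts 2 bases later had 40 and 5, with an interval of 1.66 to 4.70. The share at the mature start did not differ beyond counting error, with a log2 odds ratio of -0.34 (-1.04 to 0.37). A start 2 bases later moves the seed to CAGCAGU, which RefSeq miR-7024-3p shares. By end, 118 reads in Ago2ADH and 20 in wild type ran 1 base past the mature end, 35.3% (30.2 to 40.7) and 21.3% (13.5 to 30.9), a log2 odds ratio of 0.99 (0.22 to 1.77). With 94 reads in wild type, these shares are imprecise.

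Reads with 1 added base that the genome does not hold, which the miRNA class leaves out, were rare on miR-21-5p. They numbered 1577 in Ago2ADH and 1033 in wild type, 2.04% (1.94 to 2.14) and 2.33% (2.19 to 2.47) of the arm with them counted in. An added A was the most common, with 1184 and 764 reads, 1.53% (1.45 to 1.62) and 1.72% (1.60 to 1.85). An added U had 140 and 79 reads, 0.181% and 0.178%. Both lay under the median of 153 arms with at least 1000 reads in each library. That median was 4.93% in Ago2ADH and 4.94% in wild type for A, and 4.46% and 4.25% for U. A U after the 23-nt body matches the hairpin, so such a read counts as the 24-nt form. That form had 1627 reads in Ago2ADH and 945 in wild type. An A after the 21-nt body likewise counts as the 22-nt form. Tails of these 2 kinds could not be detected, and their part in the low shares was not tested. The most read tailed forms are shown because their tails followed different bodies; the added base is in capitals.
miR-21-5p, 23 nt and A: tagcttatcagactgatgttgacA
miR-21-5p, 22 nt and A: tagcttatcagactgatgttgaA
miR-21-5p, 22 nt and U: tagcttatcagactgatgttgaT
The first had 903 reads in Ago2ADH and 560 in wild type, 2.35% of that body with its tail in both. The second had 253 and 177 reads, 0.843% (0.742 to 0.953) and 1.13% (0.967 to 1.30), and the third 79 and 50. The share of the 22-nt body that carried an A was thus lower in Ago2ADH by more than the counting intervals, and that of the 23-nt body was not. miR-21-3p had 21 such reads in Ago2ADH and 8 in wild type.

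The host gene Vmp1, listed as Tmem49 in the deposited annotation, had no such difference. It had 178 mRNA fragments in Ago2ADH and 179 in wild type, which gave a log2 ratio per all reads of 0.10 (-0.21 to 0.41). Of these, 105 and 101 matched annotated exons on the sense strand, 1 and 0 on the antisense strand, and 72 and 78 neither. Reads also lay directly upstream of the miR-21-5p sequence: 102 reads in Ago2ADH and 90 in wild type ended directly before the first base of miR-21-5p. Of these, 72 and 75 began before the hairpin and were listed as Tmem49, and 30 and 15 lay within it and were listed as mir-21. All these border reads together were mostly 17 nt (27 and 15 reads), 18 nt (50 and 40) or 19 nt (16 and 26). Their log2 ratio per miRNA reads was 0.18 (-0.24 to 0.60), below that of miR-21-5p. Within the stretch searched, the hairpin and a short flank on each side, no read in either library started after the mature 3p end. Without the reads that ended at that border, Tmem49 had 106 in Ago2ADH and 104 in wild type.

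mRNA fragments of known miR-21 targets were near the level of all genes. Of 35 listed targets, 30 had at least 20 reads over both libraries, and their median log2 ratio was 0.07, against -0.01 over 9550 genes. Among all genes 593 lay above 0 beyond the counting interval, 6.21%, and 568 below, 5.95%; among the targets 1 lay above and none below. At 2-fold or more, 1.8% of all genes were higher and 1.99% lower, and no listed target or regulator was either. That target was Tgfbr2, a TGF-beta receptor, with 113 reads in Ago2ADH and 91 in wild type, which gave a log2 ratio of 0.42 (0.01 to 0.84). In sense exon reads alone it had 39 and 34, at 0.31 (-0.39 to 1.01), and the target above 0 was Spry1, an inhibitor of receptor tyrosine kinase signalling, with 24 and 12, at 1.11 (0.05 to 2.24).

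The 4 targets with most reads did not differ beyond counting error. Ppara, a nuclear receptor of fatty acid oxidation, had 429 reads in Ago2ADH and 448 in wild type. Acat1, a mitochondrial thiolase, had 235 and 245, and Nfib, a transcription factor, had 226 and 229. The transcription factor Sox5 had 201 and 228. Pdcd4, an inhibitor of translation, had 61 and 65 reads, at 0.02 (-0.51 to 0.54). Fragments of 15 to 34 nt are an indirect measure of an mRNA's level, and of 2560 fragments of the 30 targets in Ago2ADH and 2582 in wild type, 1060 and 1046 matched annotated exons on the sense strand.

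Of 27 listed regulators of miR-21, 24 were counted; 1 lay above and 5 below the counting interval, against 6.21% and 5.95% of all genes. Their median log2 ratio was -0.06. In the transcription list of 11 genes, 9 were counted and 1 differed. That was Egfr, a receptor tyrosine kinase, with 245 reads in Ago2ADH and 493 in wild type, at -0.90 (-1.13 to -0.68). Stat3, a transcription factor known to act on the miR-21 promoter, had 148 and 132 reads, at 0.27 (-0.07 to 0.62). Fosl1 was not found among the names listed.

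In the processing list of 10 genes, 1 was higher and 3 were lower. Drosha, listed as Rnasen, which cuts the primary transcript, had 43 reads in Ago2ADH and 81 in wild type, at -0.80 (-1.37 to -0.25). Smad3, a TGF-beta effector, had 56 and 114, at -0.92 (-1.40 to -0.44), and Ilf2, a subunit of a double-stranded RNA binding complex, 34 and 67, at -0.87 (-1.51 to -0.25). In sense exon reads alone, Ilf2 had 17 in Ago2ADH and 11 in wild type, at 0.74 (-0.44 to 1.98), Smad3 had 12 and 23, at -0.83 (-1.97 to 0.24), and Drosha had 7 and 23, at -1.61 (-3.07 to -0.34). The most read members, Dgcr8 (317 and 291 reads), the cofactor of Drosha, Ddx5 (255 and 272) and Ddx17 (207 and 241), helicases of that complex, and Dicer1 (94 and 98), did not differ beyond counting error. Dgcr8 was near that limit, at 0.23, and in sense exon reads alone it had 294 in Ago2ADH and 256 in wild type, at 0.31 (0.06 to 0.56). Among 6 genes of tailing and trimming, 5 were counted, and 1, the uridylyltransferase Zcchc6, was lower with 121 reads in Ago2ADH and 171 in wild type, at -0.39 (-0.74 to -0.05); in sense exon reads alone it had 75 and 102, at -0.33 (-0.78 to 0.11). The related Zcchc11 had 147 and 177, at -0.16 (-0.48 to 0.16). Papd5 was not found among the names listed.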

How the data were processed

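The authors deposited 1 table of distinct small RNA sequences with the number of reads of each in the Ago2ADH and the wild type library, a count of genome matches, and an annotation class and name. These read counts are raw counts, not normalized. The aligner was, like the genome build and the annotation release, not given in the sources used here. miRNA-class sequences of 15 to 34 nt were placed by exact match on GENCODE M21 hairpins (GRCm38), which placed 99.86% of miRNA reads in Ago2ADH and 99.83% in wild type, and given to an arm by their midpoint. Levels were scaled to miRNA-class reads, and mRNA fragments (RefSeq class, at least 20 reads) to all reads. Ratios have exact conditional binomial 95% intervals, shares Clopper-Pearson intervals, and odds ratios Woolf intervals with 0.5 added to each count; no interval covers variation between animals. Arms were called by a 2-fold limit with at least 100 reads. Named arms were the neighbours in wild type abundance and in log2 ratio; named genes were the 5 with most reads in the target list and in the regulator list and any beyond 2-fold (none). Tgfbr2, Spry1, Pdcd4, Stat3, Fosl1, Drosha, Smad3, Ilf2, Dicer1, Zcchc6, Papd5 and the markers Col1a2, Col3a1, Emr1 and Cd68 fall outside this rule and were chosen after their values were seen. Some genes that are counted in the lists are not reported here by name. The hairpin was folded with RNAfold 2.7.2. Analyses used Python 3.11.15, pandas 2.3.3, scipy 1.17.1 and edgeR 4.0.16 (TMM factors only). The ratio and call code was tested on simulated data, scaled to the arms simulated without a change. That differs from the scaling to all miRNA-class reads used here, so the simulation does not check the scaling. Members, lists and comparisons were chosen with earlier results of these data known. Alternatives covered scaling, read length, genome matches, added bases, and minimum and fold limits.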

Additional observations from a re-analysis of the deposited data

Results flagged for a closer look

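Reads of miR-21 outside the miRNA class also numbered more in Ago2ADH per miRNA read. miR-21-5p reads with 1 added 3′ base had a log2 ratio of 0.61 (0.49 to 0.72), from 1577 reads in Ago2ADH and 1033 in wild type. miR-21-3p reads with 1 added base had 1.39 (0.16 to 2.78), from 21 and 8. Reads of the 22-nt and 23-nt 5p forms with 1 substitution at bases 2 to 20 and no genome match had 0.38 (0.31 to 0.45), from 4222 reads in Ago2ADH and 3244 in wild type. They made up 5.91% (5.73 to 6.08) of these forms in Ago2ADH and 7.72% (7.46 to 7.98) in wild type, over all 57 possible substitutions. The substitution with most reads in wild type was G3T, counted from 1 at the mature start, with 248 reads in Ago2ADH and 218 in wild type. These reads are not in the levels of the miR-21 arms, and whether they are sequencing errors was not tested.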

How the results depend on the processing

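No paired analysis was possible because there is 1 library per genotype. miR-21-5p stayed higher in Ago2ADH under each scaling and read filter run, but its log2 ratio of 0.80 moved with the scaling: 0.91 per all reads, 0.65 with median-of-ratios scaling, 0.67 with TMM, 0.60 without the 10 most abundant arms in the totals, 0.63 without miR-451 in the totals, and 0.74 with reads of 20 to 24 nt. With each distinct sequence counted once per library it was 0.0396 for both arms, which reflects the totals alone, with 49 sequences of the 5p arm and 16 of the 3p arm in each library. Otherwise miR-21-3p lay between 1.63 and 1.94. The 23 arms called became 14 at a minimum of 500 reads, where miR-21-3p is not tested, 43 with no minimum, 72 at a 1.5-fold limit, where miR-21-5p is called, and 9 at a 3-fold limit. The 3p share and the end and start odds kept their direction in the 3 other settings run for each. The target median lay between 0.03 and 0.16. Sense exon reads alone, an alternative chosen after seeing the data, gave 0.03 over 24 targets. Ilf2 then had 17 reads in Ago2ADH and 11 in wild type. Scaled to RefSeq-class reads, 4 targets lay above 0 beyond the counting interval in place of 1, and 3 regulators lay above and 4 below, with a regulator median of 0.03; of all genes, 9.07% then lay above and 3.96% below, with a median of 0.08. In sense exon reads alone 22 regulators were counted, of which 1 lay above and 2 below. The share over all genes was not computed for sense exon reads, so these counts have no background.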
